A study of Danio rerio with 6 samples.

Results

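The left-right genes examined here are 6 regulators of the body's asymmetry: the Nodal-related ligand spaw, the Nodal antagonists dand5, lft1 and lft2, and the transcription factors foxj1a and rfx2, which switch on genes for motile cilia. They were chosen by symbol, and each symbol matched 1 entry of the 32057 genes in the table, so that all 6 were found. The data are messenger RNA counts from 6 single whole zebrafish (Danio rerio) embryos. In 3 embryos the labels give the genotype 3etv, the study's name for Pea3 triple mutants, and in 3 they give wild type (WT). All 6 were frozen at 10ss, the stage with 10 somites. Pea3 genes encode ETS transcription factors that are induced by fibroblast growth factor (FGF) signalling. The labels used here do not name the 3 mutated genes, the alleles, the parental line or the clutch, so genotype cannot be told apart from line or clutch.

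In zebrafish, left and right are set in Kupffer's vesicle, a small fluid-filled organ at the tail end of the embryo whose motile cilia drive a leftward flow. The flow lowers dand5 RNA on the left, which releases the ligand encoded by spaw from inhibition, and spaw then spreads forward through the left lateral plate mesoderm. Nodal signalling induces its own antagonists, the lefty genes lft1 and lft2, of which lft1 in the midline keeps the signal from crossing to the right. FGF signalling is known to be needed for the cilia of the vesicle.

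Gene counts per embryo ranged from 18484238 to 21865288 in 3etv and from 22446699 to 28841169 in WT. The share of reads assigned to genes was 39.7% to 41.7%, and the strand setting of the counting is not given in the sources used here. The Pea3 genes served as the check of the labels: etv5b was between 54.7 and 69.2 CPM in 3etv embryos and between 193 and 209.9 CPM in WT embryos, and etv5a between 25.4 and 28.6 CPM in 3etv and between 74.9 and 78.4 CPM in WT. etv1 was between 0.442 and 0.642 CPM in 3etv and between 1.1 and 1.65 CPM in WT (log2 fold change -1.33, edgeR adjusted p 0.0082), and etv4, at 77.7, 45.9 and 59.3 CPM in 3etv and 86.3, 89.8 and 86.0 CPM in WT, did not pass (log2 fold change -0.52, edgeR adjusted p 0.057). CPM are counts divided by the TMM-scaled library total and put on the usual common scale of that unit, so that embryos can be compared. Of 18533 genes that passed the filter on low counts, 5801 (31.3%) had an adjusted p under 0.05 in edgeR's quasi-likelihood test, 15.9% of the tested genes higher and 15.4% lower in 3etv. The groups did not overlap for 45.1% of tested genes, 22.7% with all 3etv embryos higher. The labelled tissue, whole embryo, was checked against markers of 8 tissues, and RNA of each was present in both groups. Of 9 marker entries tested, 5 were lower in 3etv: myod1 of muscle (log2 fold change -0.60), gata1a of blood (-0.59), sox10 of neural crest (-0.59), krt4 of epidermis (-0.25) and sox2 of neural tissue (-0.17), with edgeR adjusted p-values from 0.0017 to 0.035. Higher were sox17, tbxta and 1 entry of ctslb of the hatching gland (1.0, edgeR adjusted p 0.018). That entry lost significance without WT replicate 1 (edgeR adjusted p 0.11), without WT replicate 3 (adjusted p 0.084) and with all counted genes tested (adjusted p 0.059). The other tested ctslb entry did not pass (log2 fold change 1.26, edgeR adjusted p 0.064), although each 3etv embryo was above each WT embryo. The part of these tissues in the results that follow was not tested.

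Among the 6 genes, RNA of the Nodal antagonists dand5 and lft1 was higher in 3etv embryos, while the ligand and the ciliary factors did not pass the test. Of the 5 genes that could be tested, 2 rose (dand5 and lft1) and 0 fell. Of all tested genes, 31.3% differed in either direction and 15.9% were higher. With 5 genes, this comparison is a description. The CPM of the groups did not overlap for 3 of the 6 genes, dand5, lft1 and lft2, all higher in 3etv. Of all tested genes, 45.1% did not overlap in either direction and 22.7% had all 3etv embryos higher. The gene lft2 fell under the filter on low counts and was not tested, so it is not in the base of these shares.

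**Figure D1:**
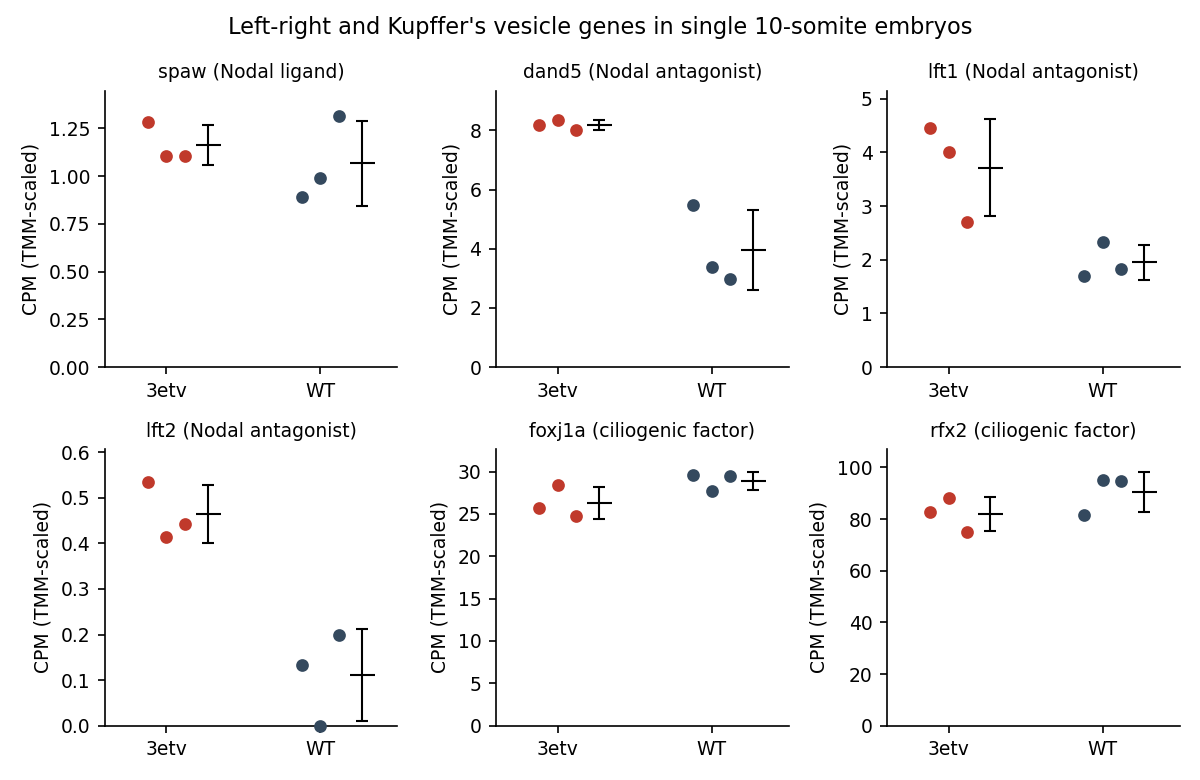
CPM of the 6 genes (y axis, from 0) in each 3etv and WT embryo, 1 point per embryo, with the mean and SD over 3 embryos at the right of the points. The 3 points of 3etv lie above the 3 of WT for dand5, lft1 and lft2, and the groups overlap for spaw, foxj1a and rfx2.

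The ligand spaw (ENSDARG00000014309) was rare in these embryos. It had 24, 24 and 20 counts in the 3etv embryos and 20, 29 and 33 in WT embryos, listed here and below by replicate number. These correspond to 1.28, 1.1 and 1.11 CPM in 3etv, and to 0.892, 0.992 and 1.32 CPM in WT. The highest embryo was a WT embryo, the lowest was another WT embryo, and the 3etv embryos lay between them. The mean was 1.16 ± 0.104 CPM in 3etv and 1.07 ± 0.222 CPM in WT (SD, n = 3 each). The log2 fold change was 0.12 (SE 0.29, edgeR adjusted p 0.78). Its 95% interval runs from 0.702-fold to 1.69-fold, a range that includes no difference.

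The antagonist dand5 (ENSDARG00000036471), also called charon, encodes a secreted protein of the Cerberus and Dan family that binds Nodal ligands around Kupffer's vesicle. It had 153, 182 and 145 counts in the 3etv embryos and 123, 99 and 75 in the WT embryos. On the CPM scale this is 8.19, 8.37 and 8.01 in 3etv, against 5.49, 3.39 and 2.99 in WT. Every 3etv embryo was above every WT embryo, and the WT embryo with replicate number 1 stood closest to the mutants. The mean was 8.19 ± 0.179 CPM in 3etv and 3.96 ± 1.34 CPM in WT (SD, n = 3 each), a 2.09-fold difference with a 95% interval from 1.55 to 2.81 (log2 fold change 1.06, SE 0.20, edgeR adjusted p 0.0013). Of all tested genes, 5.26% had a log2 fold change at least as high. In whole-embryo RNA, more cells that express a gene and more RNA per cell cannot be told apart, nor can RNA on the left side from RNA on the right.

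The spread of dand5 differed in size between the groups. The coefficient of variation over 3 embryos was 2.19% in 3etv and 33.9% in WT. Counting error alone would give about 7.91% in 3etv and 10.1% in WT, so the 3etv embryos lay closer together than counting error and the WT embryos further apart. With 3 embryos per group this difference in spread was not tested. Across genes, too, the WT embryo with replicate number 1 stood further from the other WT embryos. Its chi-square per degree of freedom was 8.83 and 10.0 against them, and theirs against each other was 3.43. Without the WT embryo with replicate number 1, dand5 was 2.56-fold higher in 3etv (edgeR adjusted p 2.17e-05). It was 1.94-fold higher without the WT embryo numbered 2 (edgeR adjusted p 0.0081) and 1.86-fold without the one numbered 3 (edgeR adjusted p 0.0057).

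The antagonist lft1 (ENSDARG00000019920) is a target of Nodal signalling that encodes a secreted feedback inhibitor of it. It had 83, 87 and 49 counts in the 3etv embryos and 38, 68 and 46 in the WT embryos. In CPM, the 3etv embryos had 4.44, 4.0 and 2.71, and the WT embryos 1.69, 2.33 and 1.84. The groups did not overlap, although the lowest 3etv embryo lay near the highest WT embryo. The mean was 3.72 ± 0.902 CPM in 3etv and 1.95 ± 0.331 CPM in WT (SD, n = 3 each). The fold was 1.89, with a 95% interval from 1.34 to 2.68 (log2 fold change 0.92, SE 0.23, edgeR adjusted p 0.0089), and 6.58% of tested genes had a log2 fold change at least as high. Here the larger spread was in the mutants, with a coefficient of variation of 24.3% in 3etv and 17.0% in WT. Counting error alone would give about 11.7% in 3etv and 14.0% in WT, and this difference in spread was not tested.

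The related antagonist lft2 (ENSDARG00000044059) is known for its expression in the left heart field. It was at the edge of detection, with 10, 9 and 8 counts in the 3etv embryos and 3, 0 and 5 in the WT embryos. That is 0.535, 0.414 and 0.442 CPM in 3etv, and 0.134, 0 and 0.200 CPM in WT, where a count of 0 allows up to 0.103 CPM (3 counts). Each 3etv embryo was above each WT embryo. Summed over embryos, lft2 had 27 counts in 3etv and 8 in WT, a ratio of rates of 4.42 with an exact 95% interval from 1.95 to 11.3 that covers counting error alone. The size of that ratio rested on single WT embryos: it was 7.94 without the WT embryo with replicate number 3 and 2.74 without the one with replicate number 2. Fitted without the filter on low counts, lft2 was 2.06 log2 units higher in 3etv (SE 0.71, edgeR adjusted p 0.026).

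The factor foxj1a (ENSDARG00000101919) is the forkhead regulator that is both required and sufficient for motile cilia in zebrafish, and is expressed in the forerunner cells of the vesicle, the floor plate and the kidney ducts. It had 479, 618 and 448 counts in 3etv and 664, 810 and 737 in WT. In CPM, 3etv embryos had 25.6, 28.4 and 24.8, and WT embryos 29.6, 27.7 and 29.4. The groups overlapped, since the highest 3etv embryo exceeded the lowest WT embryo. The mean was 26.3 ± 1.91 CPM in 3etv and 28.9 ± 1.05 CPM in WT (SD, n = 3 each). The test was not passed, at a log2 fold change of -0.14 (SE 0.084) and an edgeR adjusted p of 0.24, and the 95% interval runs from 0.802-fold to 1.03-fold.

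The factor rfx2 (ENSDARG00000013575) encodes a winged-helix protein of the RFX family that binds promoters of ciliary genes. Its counts were the highest of the 6 genes, with 1548, 1919 and 1360 in 3etv and 1831, 2775 and 2373 in WT. In CPM, 3etv embryos had 82.9, 88.3 and 75.1, and WT embryos 81.7, 94.9 and 94.7. A WT embryo lay inside the range of the mutants, so the groups overlapped. The mean was 82.1 ± 6.59 CPM in 3etv and 90.4 ± 7.60 CPM in WT (SD, n = 3 each). The log2 fold change was -0.14 (SE 0.079, edgeR adjusted p 0.20), with a 95% interval from 0.807-fold to 1.02-fold. Without the WT embryo with replicate number 1, which was the lowest of its group, rfx2 passed the threshold at -0.21 (edgeR adjusted p 0.043).

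**Figure D2:**
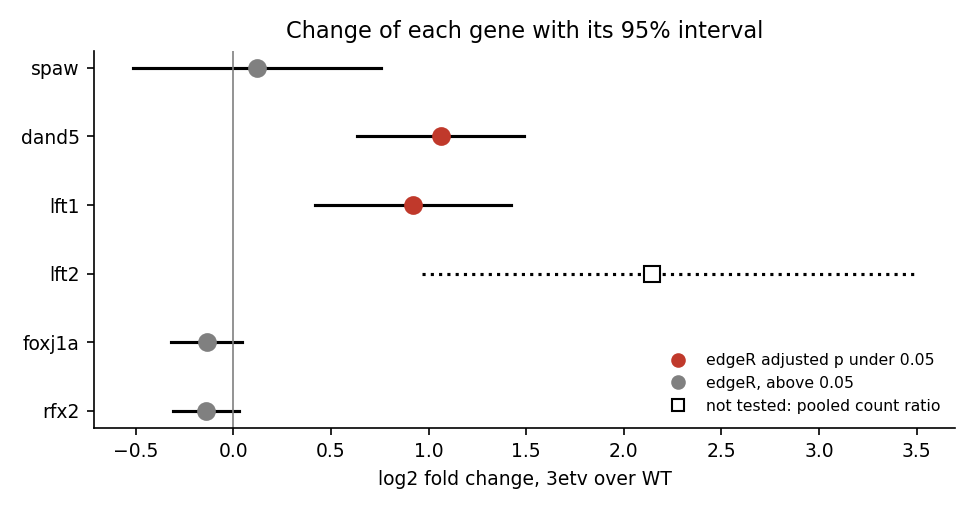
Log2 fold change of 3etv over WT (x axis) for each gene, with the 95% interval of the edgeR fit as a line; lft2 is drawn as an open square with the exact counting interval of its pooled ratio (dotted). The intervals of dand5 and lft1 lie above 0, and those of spaw, foxj1a and rfx2 include 0.

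Ratios of counts within an embryo do not depend on how libraries are scaled, and 4 were compared after the values above were seen. There were 6.38, 7.58 and 7.25 dand5 counts per spaw count in the 3etv embryos, against 6.15, 3.41 and 2.27 in the WT embryos. The groups did not overlap, but the WT embryo with replicate number 1 was close to the lowest mutant. The ratio averaged 7.07 ± 0.624 in 3etv and 3.95 ± 1.99 in WT (SD, n = 3 each). Counts of lft1 per count of spaw were 3.46, 3.63 and 2.45 in 3etv and 1.90, 2.34 and 1.39 in WT, again without overlap.

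Relative to foxj1a, dand5 had 0.319, 0.294 and 0.324 counts in 3etv, against 0.185, 0.122 and 0.102 in WT, a 2.36-fold difference of geometric means. The ratio of the ciliary factors, rfx2 per foxj1a, was 3.12 ± 0.0994 in 3etv and 3.13 ± 0.342 in WT, and the groups overlapped. For the 3 ratios with an antagonist the two-sided exact permutation p was 0.10, the smallest that 3 against 3 embryos can give (0.13 when adjusted over the 4 ratios), and for rfx2 per foxj1a it was 1. These ratios share genes and are therefore not independent of each other.

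**Figure D3:**
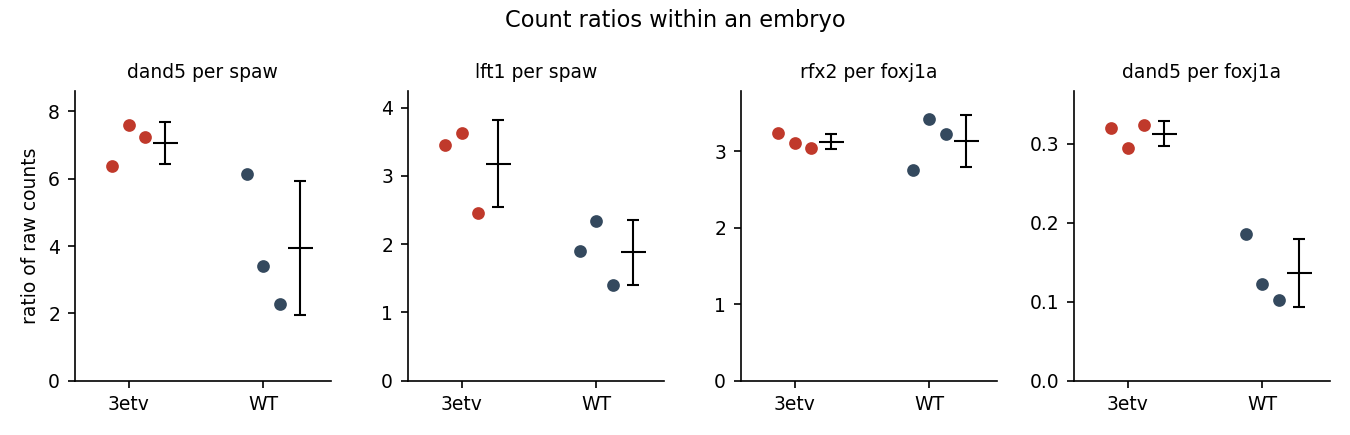
Ratios of raw counts within each embryo (y axis, from 0) for 4 pairs of genes, 1 point per embryo, with the mean and SD over 3 embryos. The 3etv embryos lie above the WT embryos for dand5 per spaw, lft1 per spaw and dand5 per foxj1a, while rfx2 per foxj1a overlaps at averages of 3.12 and 3.13.

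Other listed genes of the Nodal pathway did not pass the test. Of 16 listed genes, 14 were tested with edgeR, and 0 rose and 0 fell, as with DESeq2 and limma voom, while 2 had an unadjusted p under 0.05 (tdgf1 and smad3b). The median log2 fold change was -0.018, beside 0.0035 for all tested genes. Without a low-count filter 1 gene fell, and without the 3etv embryo with replicate number 3 there was 1 that rose and 1 that fell. Without the WT embryo with replicate number 1, 1 gene rose. The Nodal ligands ndr1 and ndr2, which act in the gastrula, had between 0 and 6 counts in any embryo and were not tested. gdf3, the Vg1 partner with which Nodal ligands form active dimers, was 6.32 ± 0.282 CPM in 3etv and 7.51 ± 0.562 CPM in WT (SD, n = 3 each). Its log2 fold change of -0.25 did not pass (edgeR adjusted p 0.175). The co-receptor tdgf1 had a log2 fold change of -0.29 (edgeR adjusted p 0.10), and foxh1, the transcription factor that carries the Nodal signal to DNA with Smad proteins, one of 0.24 (edgeR adjusted p 0.33).

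**Figure D4:**
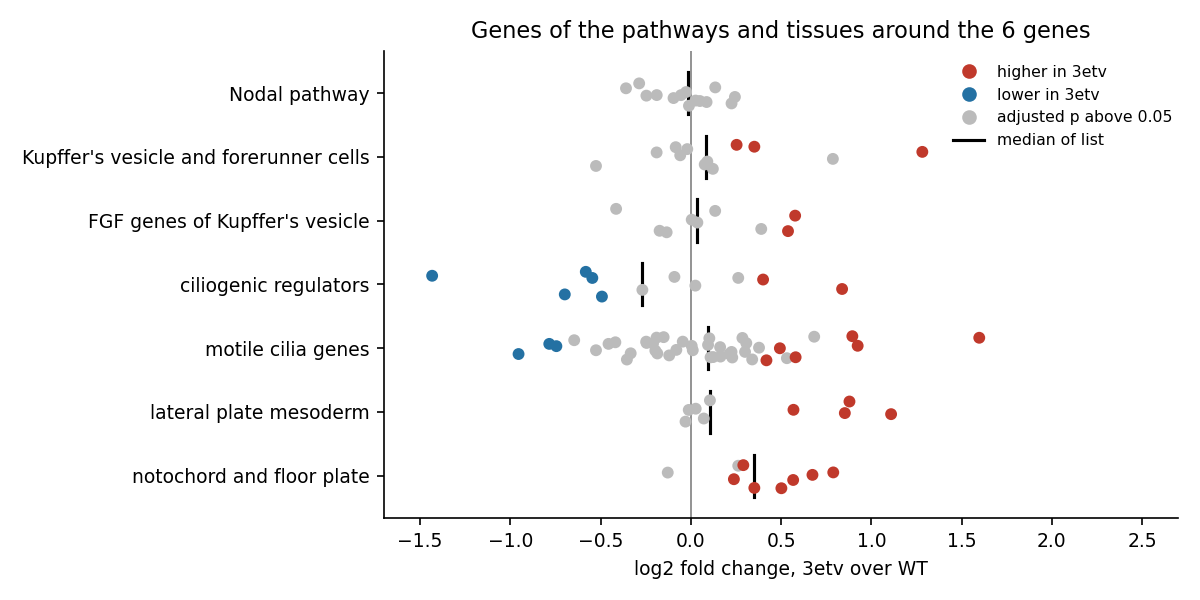
Log2 fold change of 3etv over WT (x axis) for every tested gene of 7 lists (rows), 1 point per gene, with the list median as a black line; vertical scatter within a row has no meaning. In the notochord and floor plate row 7 of 9 genes are higher in 3etv and none is lower, and ciliogenic regulators include 5 lower and 2 higher genes.

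Midline and lateral plate markers were set beside lft1 and spaw, since notochord and lateral plate are the tissues in which these genes act. All lists here were chosen with earlier results of these data known. Their shares, here and below, are therefore descriptions and not tests. Of 9 notochord and floor plate genes, 7 rose and 0 fell in 3etv (77.8%, beside 15.9% of all tested genes higher), with a median log2 fold change of 0.35. They include shhb (11.2 ± 0.679 CPM in 3etv and 6.5 ± 0.133 CPM in WT, SD, n = 3 each, log2 fold change 0.79, edgeR adjusted p 2.6e-04), which encodes a Hedgehog ligand, and the forkhead gene foxa2 (0.67, edgeR adjusted p 3.0e-04). The forkhead gene foxa (0.57, edgeR adjusted p 8.6e-04) and the notochord sheath collagen col8a1a (0.50, edgeR adjusted p 0.0025) also rose. shha rose by 0.29 (edgeR adjusted p 0.023), but it lost significance without the 3etv embryo with replicate number 2 or without the WT embryo numbered 2 or 3 (adjusted p from 0.068 to 0.13). Only 4 of the 9 genes rose when either embryo numbered 2 was left out. The summed level of the list was between 676 and 842 CPM in 3etv and between 577 and 598 CPM in WT, and its part in the lft1 result was not tested.

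Of 9 lateral plate genes, 4 rose and 0 fell, so that 44.4% were higher in 3etv beside 15.9% of all tested genes. gata6, a zinc finger factor of heart and gut mesoderm and endoderm, had 22.4, 31.2 and 26.5 CPM in 3etv, against 16.2, 10.3 and 10.9 CPM in WT (log2 fold change 1.11, SE 0.18, edgeR adjusted p 0.0012). gata5 (0.57), gata4 (0.85) and tbx5a (0.88) rose with edgeR adjusted p-values from 0.022 to 0.034, and each of these 3 lost significance when the 3etv embryo or the WT embryo with replicate number 2 was left out (adjusted p from 0.061 to 0.14), which left gata6 as the sole gene of the list that rose. gata4 and tbx5a also did not pass with DESeq2 (adjusted p 0.065 and 0.080). Other embryos whose removal ended a call were the WT embryo numbered 3 for gata5 (adjusted p 0.069), the 3etv embryo numbered 1 for gata4 (0.070), and the 3etv embryo numbered 3 and the WT embryo numbered 1 for tbx5a (0.081 and 0.059). hand2 and foxf1, which mark the lateral plate more broadly, differed by 0.072 and 0.11 (edgeR adjusted p 0.69 and 0.83). The list summed to between 86.1 and 109 CPM in 3etv and between 63.9 and 77.1 CPM in WT, with none of the 9 genes at 0.

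Genes listed for Kupffer's vesicle and its precursors were low or showed small differences. Their levels were far apart, with WT means of 0.757 CPM for cftr and 412 CPM for lamc1. Whole-embryo RNA does not show how much of each came from the vesicle, so the shares describe the list and not the vesicle. Of 14 listed genes, 12 were tested, 3 rose and 0 fell, with a median log2 fold change of 0.084. The share that differed, 25%, was below the 31.3% of all tested genes that differed in either direction. It held higher genes only, and it was above the 15.9% of all tested genes that were higher. sox17, a marker of endoderm and of the dorsal forerunner cells that form the vesicle, had 18, 40 and 15 counts in 3etv and 16, 10 and 12 in WT, and rose by 1.28 log2 units (SE 0.41, edgeR adjusted p 0.030). Leaving out the 3etv embryo with 40 counts brought it to 0.83 (adjusted p 0.21), and it did not pass with DESeq2 (adjusted p 0.065). The T-box gene tbxta, active in notochord, tailbud and forerunner cells, rose by 0.35 (edgeR adjusted p 0.029), and the laminin gene lamc1 by 0.25 (edgeR adjusted p 0.012). tbxta also counts among the notochord and floor plate genes that rose, and tbxta and sox17 among the higher tissue markers, so these counts share genes. The vesicle list had 0 genes that rose when the 3etv embryo or the WT embryo with replicate number 2 was left out, and 1 without the WT embryo numbered 3.

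The listed vesicle genes cftr and dnah9 did not pass. cftr, the chloride channel that inflates its lumen, was 1.28 ± 0.497 CPM in 3etv and 0.757 ± 0.302 CPM in WT (SD, n = 3 each, log2 fold change 0.79, edgeR adjusted p 0.14). dnah9, an axonemal dynein gene expressed in forerunner cells, had 1.18, 1.2 and 0.829 CPM in 3etv and 1.38, 1.61 and 1.64 CPM in WT. Its 3 mutant values were below the WT values, with a log2 fold change of -0.53 (edgeR adjusted p 0.17). sox32, the endoderm gene needed for forerunner cells, had between 2 and 7 counts in 3etv and between 1 and 5 in WT and was not tested. The summed level of the whole list, between 829 and 959 CPM in 3etv and between 768 and 830 CPM in WT, has lamc1 as its largest part. The part of these genes in the dand5 result was not tested.

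FGF genes with a described role in the vesicle were also read. Their values are from the whole embryo, and the part that came from the vesicle cannot be told. Of 9 tested, 2 rose and 0 fell, so that 22.2% differed, all of them higher. Of all tested genes, 31.3% differed in either direction and 15.9% were higher. cnpy1, an endoplasmic reticulum protein that promotes FGF signalling in forerunner cells, had 16.0 ± 1.23 CPM in 3etv and 11.0 ± 0.835 CPM in WT (SD, n = 3 each, log2 fold change 0.54, edgeR adjusted p 0.0021). ier2b, an immediate early gene that acts downstream of FGF in laterality, had 11.3 ± 1.06 CPM in 3etv and 7.56 ± 0.682 CPM in WT (0.58, edgeR adjusted p 0.0035).

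Ciliogenic regulators other than foxj1a and rfx2 moved in both directions. Of 13 listed, 11 were tested, 2 rose and 5 fell, with a median log2 fold change of -0.27. In all 63.6% differed, beside 31.3% of all tested genes. Lower in 3etv were the RFX genes rfx7a (13.4 ± 1.77 CPM in 3etv and 21.9 ± 1.56 CPM in WT, SD, n = 3 each, log2 fold change -0.70, edgeR adjusted p 4.1e-04), rfx1b (-0.55, edgeR adjusted p 3.2e-04) and rfx1a (-0.58, edgeR adjusted p 0.0095). rfx3, a close relative of rfx2, had 21.3, 25.0 and 19.1 CPM in 3etv and 23.6, 28.4 and 26.9 CPM in WT, and did not pass (-0.27, edgeR adjusted p 0.077). It passed without the 3etv embryo numbered 2 and without the WT embryo numbered 1 (adjusted p 0.029 and 0.027). foxj1b, the second foxj1 gene of zebrafish, rose by 0.40 (edgeR adjusted p 0.047). The groups overlapped, and it did not pass with DESeq2 or limma voom (adjusted p 0.079 and 0.056), nor without the 3etv embryos numbered 2 or 3 or the WT embryos numbered 1 or 3 (adjusted p from 0.082 to 0.21). Without the WT embryo numbered 2, 3 regulators fell in place of 5.

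Factors of multiciliated cells, which in zebrafish embryos line the kidney ducts, were among the changed regulators. gmnc, which starts the multiciliated programme, had 6, 4 and 3 counts in 3etv and 11, 19 and 17 in WT. It fell by 1.43 on the log2 scale (edgeR adjusted p 0.029), was chosen for mention after its values were seen, and did not pass with DESeq2 (adjusted p 0.14) or without the embryos numbered 2 or 3 of either genotype (adjusted p from 0.088 to 0.11). The entry matched by gene ID to mcidas, a partner of E2F factors in the same programme, had 1, 5 and 2 counts in 3etv and 21, 27 and 7 in WT and was not tested. e2f5 rose instead, with 3.75, 5.75 and 4.86 CPM in 3etv against 2.45, 2.60 and 2.99 CPM in WT (0.84, edgeR adjusted p 0.0062). myb, which acts in multiciliated cells and in blood progenitors, fell by 0.49 (edgeR adjusted p 0.014). It lost significance without the 3etv embryo or the WT embryo numbered 2 (adjusted p 0.056 and 0.053).

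Structural and assembly genes of motile cilia, many of them targets of foxj1a, mostly did not pass the test. Of 52 listed, 49 were in the table and 43 were tested, of which 6 rose, 3 fell and 34 did not pass, so that 20.9% differed beside 31.3% of all tested genes. The median log2 fold change was 0.095. hydin, which encodes a protein of the central pair of the axoneme, had 13.3, 16.1 and 14.3 CPM in 3etv and 4.73, 4.14 and 5.63 CPM in WT, a 3.03-fold difference with a 95% interval from 2.45 to 3.73 (edgeR adjusted p 3.7e-06). No mutant value came near a WT value.

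dnaaf4, which helps to assemble dynein arms, was 8.07 ± 1.02 CPM in 3etv and 4.27 ± 0.180 CPM in WT (SD, n = 3 each, log2 fold change 0.92, edgeR adjusted p 4.3e-04). mns1, which encodes a filament protein of the axoneme, rose by 0.58 (edgeR adjusted p 2.3e-04), and cfap298, needed for dynein arm assembly, by 0.42 (edgeR adjusted p 0.0059). Other dynein arm assembly genes were lower in 3etv: dnaaf11 (log2 fold change -0.74, edgeR adjusted p 0.016) and zmynd10 (-0.78, edgeR adjusted p 0.039). cfap52, a gene for a protein of the axonemal microtubules, fell by 0.95 (edgeR adjusted p 0.014). It lost significance without the 3etv embryos numbered 1 or 3 or the WT embryo numbered 2 (adjusted p from 0.052 to 0.056). Without that WT embryo 0 genes of the list fell, and without the 3etv embryo numbered 3 there was 1.

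The profiles most like those of dand5 and lft1 were then looked up. Likeness was the root mean square distance between log2 CPM profiles over the 6 embryos, each centred on its own mean, among the 14243 tested genes that averaged 1 log2 CPM or more. Nearest to dand5 was ppp1r3cb, a regulatory subunit of protein phosphatase 1, at a distance of 0.10. It had 9.05, 10.2 and 10.6 CPM in 3etv and 6.38, 3.66 and 3.27 CPM in WT, so that the WT embryo with replicate number 1 was again the highest of its group. The next was sil1, a nucleotide exchange factor of the endoplasmic reticulum, at 0.11. Nearest to lft1 were the phospholipase gene ddhd2 at 0.079 and the insulin receptor substrate gene irs2a at 0.10. With 6 embryos in 2 groups and many genes that differ between the groups, small distances are common, and they are given as a description.

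**Figure D5:**
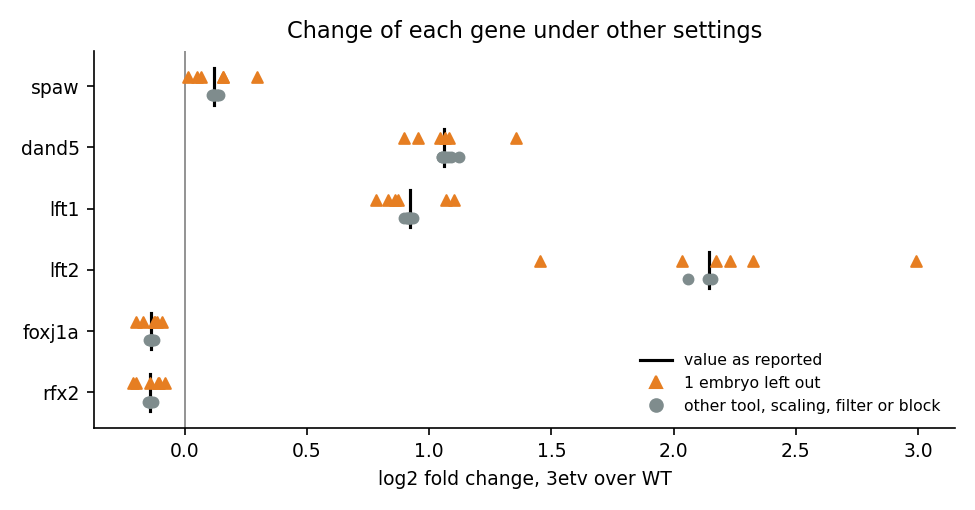
Log2 fold change of 3etv over WT (x axis) for each gene under other settings: the value as reported (black line), values with 1 embryo left out (triangles) and other tools, scalings, filters or the replicate block (circles). For lft2 these are log2 ratios of pooled counts, except the fit without a low-count filter. All values of dand5 and lft1 lie above 0, between 0.78 and 1.35, and those of lft2 spread most, between 1.45 and 2.99.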

How the data were processed

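The authors deposited 1 table of raw counts per Ensembl gene and embryo. Per the submitters' processing notes, STAR, HTSeq and the genome build GRCz11 were used; versions, annotation release and strand setting are not given in the sources used here. Per the labels' protocols, libraries were strand-specific and made from poly-A RNA. A space replaces a tab in the header line, so columns were matched to samples by the names in it, each equal to a sample title. The 5 HTSeq summary entries, holding between 58.3% and 60.3% of reads, stayed out of library sizes and tests. The largest of them, for reads that were assigned to no feature, held between 52.8% and 53.6% of reads.

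Genes were filtered with filterByExpr (minimum count of 10), scaled by TMM and tested in R 4.3.3 with edgeR 4.0.16 (robust quasi-likelihood, genotype as sole term, Benjamini-Hochberg adjustment over 18533 tested genes, threshold 0.05). Standard errors were taken from each log2 fold change and its F statistic. Alternatives used limma 3.58.1 and DESeq2 1.42.0. Methods were tested on simulated data. Nothing in the labels says that embryos came from separate clutches. The p-values therefore set the difference between groups against the spread between these embryos, and variation between clutches may not be covered. The closest replicates differed beyond counting error (chi-square per degree of freedom 3.43), so each counted as 1 sample.

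The 6 genes and the lists were chosen with earlier results of these data known. Named by rule are the 6 genes and, per list, up to 5 genes with the lowest adjusted p under 0.05. The rule adds 11 fixed genes and the 2 nearest profiles of each changed gene. Outside this rule are the Pea3 genes, sox2, tdgf1, smad3b, foxh1, hand2, foxf1, gmnc, mcidas, dnaaf11 and zmynd10. Older symbols or gene IDs were used where the table lacked the listed symbol; ccno, dnaaf5, cfap46 and spag16 found no entry by these routes. 1 listed gene of the Nodal pathway is not reported here. Intervals and floors of counts cover counting error only, because without molecular identifiers a read is not an independent molecule. Reads of overlapping or antisense genes may not have been told apart.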

Additional observations from a re-analysis of the deposited data

How the results depend on the processing

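The count of differing genes was 3460 at an adjusted p under 0.01 against 5801, and it stayed within 1.5 times of 5801 under the other alternatives, from 4247 to 5721 with 1 embryo left out. dand5 and lft1 kept their direction and their call in all 14 alternatives, with adjusted p-values up to 0.0081 and 0.040. Leaving out 1 embryo gave log2 fold changes from 0.90 to 1.35 for dand5, from 0.78 to 1.1 for lft1, from 0.016 to 0.30 for spaw and from -0.20 to -0.093 for foxj1a. It gave values from -0.21 to -0.078 for rfx2, whose call appeared in 1 of them, and the cause was not tested. For lft2 the log2 ratio of pooled counts, which is not a fit, ran from 1.45 to 2.99. lft2 passed without a low-count filter (2.06, adjusted p 0.026), where 27598 genes were tested. Of 35 other genes followed under the alternatives, 22 kept their side of the threshold throughout, 12 lost a call somewhere, 1 gained one and 0 reversed. Some named genes, such as the Pea3 genes, tdgf1, foxh1, hand2 and the nearest profiles, were not followed there. With a replicate block in the fit, the count was 4524, dand5 had 1.09 and lft1 0.91, and no call among the 6 genes changed. The block ended the calls of sox17, gmnc, foxj1b, lamc1, shha and tbx5a (adjusted p from 0.051 to 0.068), and 1 gene of the vesicle list rose in place of 3. Deviations of same-numbered embryos correlated at -0.13 to -0.030, which gives no hint that numbers pair embryos. Depth limits spaw and lft2, with 150 and 35 counts over all embryos. spaw could not be fitted under the filter at a mean count of 50. With edgeR, lft2 was fitted only without a filter, and no DESeq2 result is given for it.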
